A study of Mus musculus with 8 samples.

Results

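The genes described are 10 enzymes of tryptophan breakdown along the kynurenine pathway, chosen by name: Tdo2, Ido2, Afmid, Kmo, Kynu, Haao, Kyat1, Kyat3, Acmsd and Qprt. All 10 were among the 15833 genes kept for testing in whole mouse liver. They are read by 14 probes, with 2 probes each for Kmo, Kynu, Kyat1 and Kyat3, and every one of the 14 was well above background on 8 of 8 arrays. The series profiled 8 livers on 1-colour Agilent arrays, 1 mouse per array, to ask how loss of Keap1 acts on bile duct cancer. All mice carried an activated oncogene and mutant p53 (R172H) expressed in the liver. Those called AKP kept Keap1, and those called AKP::Keap1 also had Keap1 deleted there. Each genotype had 2 males and 2 females, which gave 4 groups of 2 mice. The labels used here give neither the age of the mice nor the promoter behind the liver-specific expression. The p-values rest on the spread between the 2 mice within each group, pooled over the 4 groups and moderated over all genes. Each group lay on 1 slide, so this spread holds no difference between slides.

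The liver removes most dietary tryptophan. Tdo2, the hepatocyte tryptophan dioxygenase, and the related Ido2 open the indole ring, and the formamidase Afmid releases kynurenine. The monooxygenase Kmo, the kynureninase Kynu and the dioxygenase Haao then carry kynurenine towards quinolinic acid. At that point the decarboxylase Acmsd diverts the Haao product to complete oxidation, whereas Qprt uses quinolinic acid to make NAD. The aminotransferases Kyat1 and Kyat3, which need vitamin B6, turn kynurenine into kynurenic acid, and both also act on other amino acids. Keap1 holds back the transcription factor Nrf2, which binds antioxidant response elements.

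Kyat3 fell in males with the Keap1 deletion, was not called in females, and differed between the sexes in the test of that difference. The call between the sexes was lost in 8 of 18 alternatives, whereas the fall in males was called in all of its alternatives. On both of its probes the 2 AKP::Keap1 males lay far below the other 6 mice. In males Acmsd, Kynu and Haao fell as well, but each of these 3 calls was lost with quantile normalization and for signals not scaled between arrays. The 3 calls were also lost without any 1 of the male arrays, where far fewer of all genes were called in males. None of the 10 enzymes passed the test in females on the probe that stood for its gene. On their dimmer probes, however, Kmo and Kynu were called lower in females and as the mean over the sexes. On the probes that stood for them, Tdo2, Ido2, Afmid, Kmo, Kyat1 and Qprt passed the test in none of the 5 comparisons. These were genotype over both sexes, in males and in females, the difference between the sexes, and sex.

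Levels are log2 processed signals relative to the 75th percentile of their array, and a difference is AKP::Keap1 minus AKP on that log2 scale, with the standard error of the fit. A gene was called where limma's Benjamini-Hochberg adjusted p over all 15833 genes was below 0.05. In males 4 of the 10 enzymes were called, all lower. Over all genes 28.2% were called in males, 16.7% higher and 11.5% lower. In females 0 of 10 were called by limma and 1 had an unadjusted p below 0.05. Normexp background correction, for which the brightest probe was chosen anew, called 1, Kynu, at -0.86. That value lay near the -0.87 of the dimmer Kynu probe, where the brighter probe gave 0.09. Over all genes 21.4% were called in females, 12.3% higher and 9.10% lower. As the mean over both sexes, 1 of 10 was called, Kyat3, which was lower, beside 39.1% of all genes, 21.8% higher and 17.2% lower.

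The median difference of the 10 enzymes was -0.54 in males, where the median of all genes was -0.03. In females it was 0.07, beside 0.05 for all genes. In males 9 of the 10 were lower in AKP::Keap1 and 1 was higher, but for signals not scaled between arrays 5 were lower and 5 higher. In females 4 were lower and 6 higher, and leaving out single female arrays gave counts from 2 lower, without AKP female 1 or AKP::Keap1 female 2, to 8 lower, without AKP female 2. Arrays of the genotypes did not overlap in males for 7 of 10 enzymes. With 2 mice a group this was common, since 73.0% of all genes did not overlap in males. In females only Ido2 of the 10 did not overlap, against 65.1% of all genes.

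**Figure D1:**
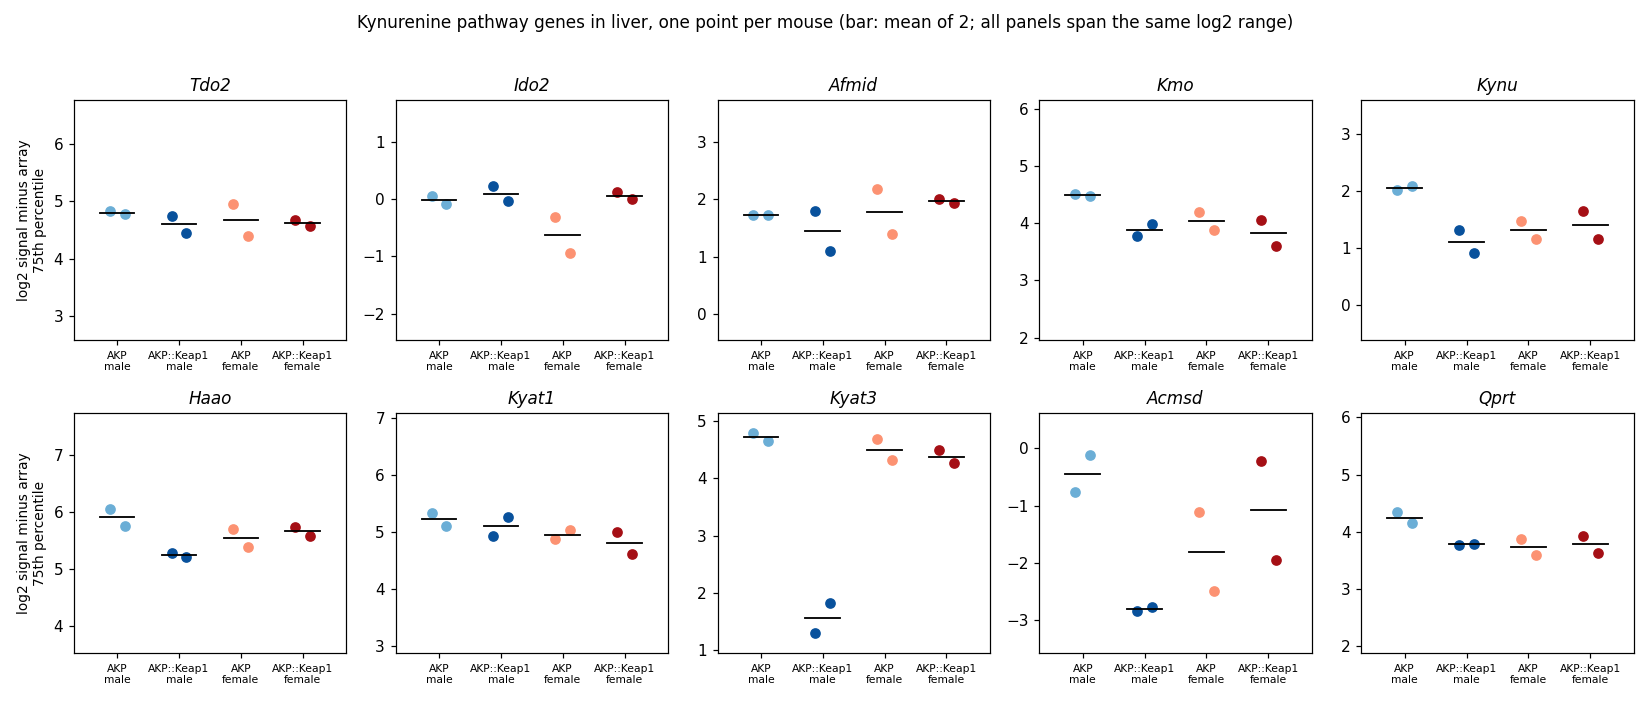
Level of each enzyme on every array, as log2 processed signal minus the array's 75th percentile, with 1 point per mouse and a bar at the mean of the 2 mice in a group. Kyat3 lies at 1.29 and 1.82 in AKP::Keap1 males and between 4.27 and 4.80 in the other 6 mice, while Tdo2 stays between 4.40 and 4.95 on all 8 arrays.

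**Figure D2:**
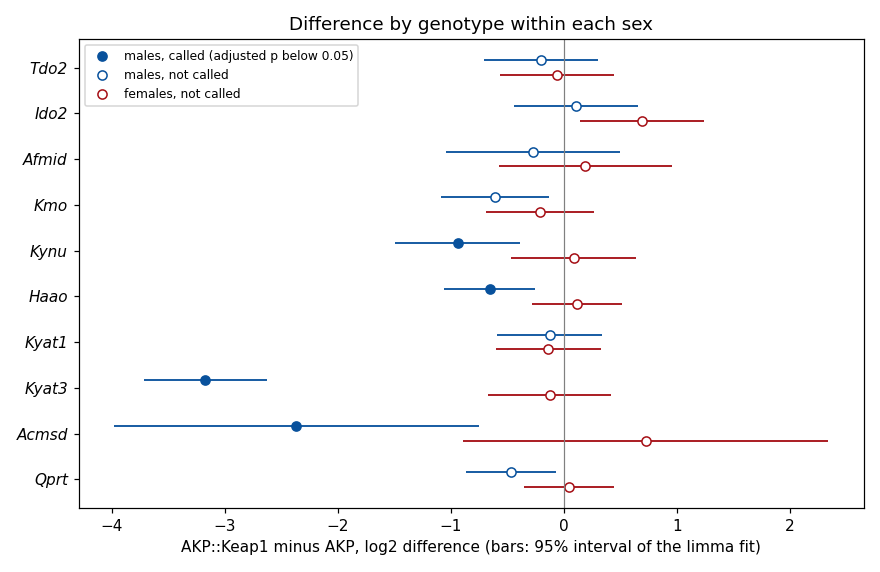
Difference by genotype (AKP::Keap1 minus AKP, log2) of each enzyme in males and in females, with the 95% interval of the limma fit as bars and filled points where the adjusted p was below 0.05. The filled points are Kynu, Haao, Kyat3 and Acmsd in males, all below 0, and no female point is filled.

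Kyat3 is 1 of the enzymes that make kynurenic acid. Its brighter probe read 4.80 and 4.65 in males of AKP and 1.29 and 1.82 in those of AKP::Keap1. It read 4.68 and 4.32 in AKP females and 4.49 and 4.27 in AKP::Keap1 females. The first 3 groups in order of level, AKP males, AKP females and AKP::Keap1 females, overlapped with their neighbours, and only the AKP::Keap1 males stood apart. In males the difference was -3.17 ± 0.22 (SE, n = 2 per group, adjusted p = 0.0011), a 9-fold lower level. Of 15833 genes, 9 had a more negative difference in males. In females the difference was -0.12 ± 0.22 (adjusted p = 0.73), with a 95% interval from -0.67 to 0.42.

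The dimmer Kyat3 probe also set the AKP::Keap1 males apart. It read 0.16 and -0.01 in males of AKP, -3.24 and -2.95 in males of AKP::Keap1, 0.09 and -0.26 in AKP females and -0.12 and -0.26 in AKP::Keap1 females. Its male difference was -3.17 ± 0.18 (adjusted p = 0.00072 in a fit over all kept probes), and its female difference was -0.10 ± 0.18. The male fall was called under each of 19 alternatives, with values from -3.54 to -2.66 and adjusted p-values from 6.5e-05 to 0.01.

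The difference between the sexes was itself tested as the female minus the male genotype difference. It was 3.05 ± 0.32 for Kyat3 (adjusted p = 0.024), the 16th highest of 15833 genes. Kyat3 was the 1 enzyme of 10 called in this test, in which 1.72% of all genes were called and 0.411% were called in the same direction. The value ranged from 2.65 to 3.32 over 18 alternatives, and the call was lost in 8 of them. The adjusted p was 0.052 with a replicate block. The call was lost without any 1 of 7 arrays and kept without AKP::Keap1 male 1, with values from 2.78 to 3.32. Far fewer of all genes were called between the sexes in those fits. Over both genotypes Kyat3 was higher in females by 1.30 ± 0.16 (adjusted p = 0.007), also the 1 enzyme of 10 called, beside 21.1% of all genes called by sex and 10.9% called higher in females. In AKP mice alone the sexes overlapped.

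Each group lies on 1 slide of its own, and the sexes were scanned on 2 separate days, so slide and group cannot be told apart. With 1 mean per group, the genotype difference of Kyat3 over both sexes was -1.65 ± 0.16 (adjusted p = 0.0015). An additive model, which has no term for a difference between the sexes, gave the same mean with an error of 0.58 and an adjusted p of 0.067. Adding the slide as a random effect to that additive model gave an error of 0.59 and an adjusted p of 0.086.

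**Figure D3:**
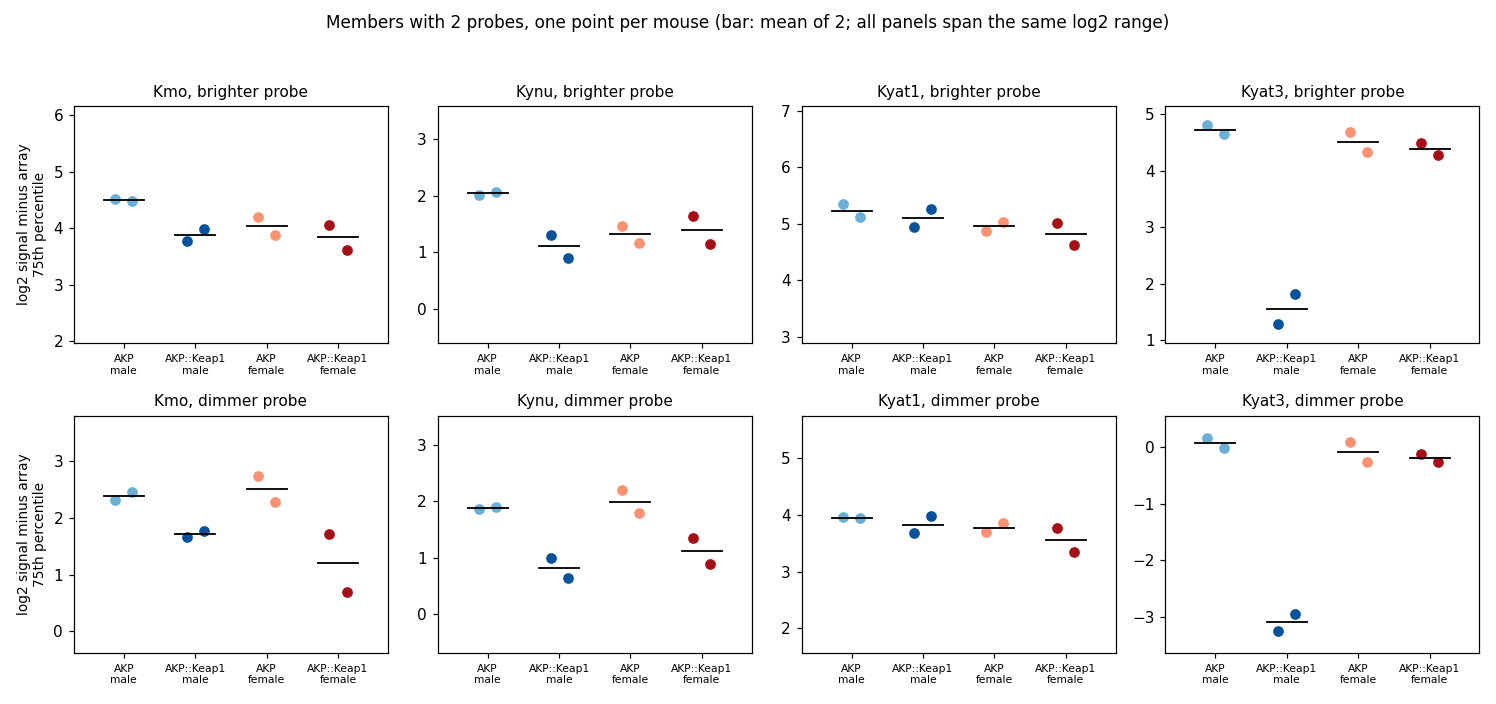
Levels on every array for the 4 enzymes with 2 probes, the brighter probe above and the dimmer probe below, with 1 point per mouse and a bar at the group mean. Both Kyat3 probes drop only in AKP::Keap1 males, both Kyat1 probes stay level, and the probes of Kmo and Kynu differ from each other in females.

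Kyat1, the other kynurenine aminotransferase described, showed no such fall. Its brighter probe read 5.34 and 5.11 in males of AKP and 4.94 and 5.26 in those of AKP::Keap1. In females it read 4.87 and 5.03 in AKP and 5.01 and 4.62 in AKP::Keap1. All 4 groups overlapped with their neighbours in order of level. The difference was -0.13 ± 0.19 in males (95% interval from -0.59 to 0.34) and -0.14 ± 0.19 in females, and the second probe gave -0.12 ± 0.18 and -0.22 ± 0.18. These intervals leave room for a smaller change in Kyat1, but the male interval does not reach the interval of Kyat3, from -3.71 to -2.63.

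The promoters of Kyat3 and Kyat1 are printed because these genes are the pair of aminotransferases, of which Kyat3 fell in males and Kyat1 was not called. They are the 250 bases before the annotated start in RefSeq on GRCm38.p6, 5′ to 3′ on the gene's strand. Kyat3 lies on the plus strand at chr3:142700798-142701047 and Kyat1 on the minus strand at chr2:30205848-30206097. Capitals mark matches on either strand to antioxidant response element cores, TGACNNNGC or TGAGNNNGC, or to GCGTG, the core bound by the aryl hydrocarbon receptor.
Kyat3: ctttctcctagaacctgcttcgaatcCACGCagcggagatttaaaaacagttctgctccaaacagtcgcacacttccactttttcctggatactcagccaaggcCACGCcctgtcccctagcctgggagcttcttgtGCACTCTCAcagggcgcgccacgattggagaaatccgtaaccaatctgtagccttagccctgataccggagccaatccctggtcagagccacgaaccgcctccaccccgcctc
Kyat1: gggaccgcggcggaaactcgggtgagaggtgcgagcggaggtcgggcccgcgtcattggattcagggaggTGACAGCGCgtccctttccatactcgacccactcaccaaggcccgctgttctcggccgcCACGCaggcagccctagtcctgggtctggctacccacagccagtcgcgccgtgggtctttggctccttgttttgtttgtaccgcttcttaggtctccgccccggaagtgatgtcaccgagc

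The Kyat3 window holds TGAGNNNGC on the minus strand from -113 to -105 and GCGTG on the minus strand from -224 to -220 and from -146 to -142, counted from the start. The Kyat1 window holds TGACNNNGC on the plus strand from -180 to -172 and GCGTG on the minus strand from -121 to -117. Among 32851 promoter windows of this length, TGACNNNGC was found in 10.2%, TGAGNNNGC in 14.4% and GCGTG in 28.2%. A window was listed for 8 of the 10 enzymes, and of these Afmid and Haao also hold TGAGNNNGC, and Qprt holds both antioxidant forms. A match is a description of the letters.

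The genes whose levels ran most like Kyat3 over the 8 arrays were Metrn, a secreted neurotrophic factor (Pearson r = 0.977), Mcat, the mitochondrial malonyl transferase (0.977), and Isca2, an iron-sulfur assembly factor (0.976). These are descriptions over arrays that share 4 slides and 2 scan days, and 93 genes had an r above 0.9. Their own male differences were smaller, at -0.77 ± 0.14 for Metrn (adjusted p = 0.014), -0.23 ± 0.11 for Mcat (0.15) and -0.40 ± 0.12 for Isca2 (0.047). Among the tested genes next to Kyat3 on its chromosome, examined after the Kyat3 values were seen, none was called in males or in the test between the sexes. On either side of it lie Gbp2, an interferon-induced GTPase, with a male difference of -0.48 ± 0.30, and Gtf2b, a general transcription factor, with -0.71 ± 0.25 in males (adjusted p = 0.076) and -1.13 ± 0.25 in females (0.027).

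At the entry of the pathway, neither Tdo2 nor Ido2 passed the test. Tdo2 read 4.83 and 4.78 in males of AKP, 4.74 and 4.45 in males of AKP::Keap1, 4.95 and 4.40 in AKP females and 4.67 and 4.57 in AKP::Keap1 females. The male arrays of the genotypes were close but did not overlap, and the female arrays did. The difference was -0.20 ± 0.21 in males (adjusted p = 0.48), -0.06 ± 0.21 in females (0.86) and -0.13 ± 0.15 as the mean over the sexes (0.50), with a 95% interval from -0.49 to 0.22.

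Ido2 was lowest in AKP females. It read 0.07 and -0.07 in males of AKP, 0.23 and -0.03 in males of AKP::Keap1, -0.31 and -0.95 in AKP females and 0.12 and 0.00 in AKP::Keap1 females. The female difference of 0.69 ± 0.23 had an unadjusted p of 0.021 and an adjusted p of 0.076, and the male difference was 0.10 ± 0.23. Ido2 was the 1 enzyme with a positive mean difference over the sexes, 0.40 ± 0.16 (adjusted p = 0.094). The female value was called in 2 of 18 alternatives, with a replicate block (adjusted p = 0.049) and without AKP female 1 (0.034). Without AKP female 2 it dropped to 0.37. The levels most like those of Ido2 over the 8 arrays were Myh10, a nonmuscle myosin (r = 0.981), Atp8b4 (0.968) and Cep20 (0.967).

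Afmid read 1.73 and 1.72 in males of AKP, 1.80 and 1.10 in males of AKP::Keap1, 2.18 and 1.39 in AKP females and 2.01 and 1.94 in AKP::Keap1 females. The genotypes overlapped in both sexes, and the difference was -0.27 ± 0.32 in males and 0.19 ± 0.32 in females.

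Of the 3 enzymes from kynurenine towards quinolinic acid, Kynu and Haao fell in males and Kmo did not pass the test. Kynu, which splits kynurenine and 3-hydroxykynurenine, read 2.02 and 2.07 in males of AKP and 1.31 and 0.90 in those of AKP::Keap1. Females read 1.47 and 1.16 in AKP and 1.65 and 1.15 in AKP::Keap1. The male difference was -0.94 ± 0.23 (adjusted p = 0.03), a 1.92-fold lower level, and the female difference was 0.09 ± 0.23 (0.81).

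The probes of Kynu differed in females. The dimmer probe read 1.87 and 1.90 in males of AKP, 0.99 and 0.64 in males of AKP::Keap1, 2.20 and 1.79 in AKP females and 1.35 and 0.90 in AKP::Keap1 females. On it both sexes fell, by 1.07 ± 0.22 in males (adjusted p = 0.02) and by 0.87 ± 0.22 in females (0.037). The female minus male difference was 1.03 ± 0.32 on the brighter probe (adjusted p = 0.14) and 0.20 ± 0.32 on the dimmer. A lower Kynu level in males was therefore read by both probes, whereas the female result depended on the probe.

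Haao, which makes the precursor of quinolinic acid, read 6.05 and 5.76 in males of AKP and 5.28 and 5.21 in those of AKP::Keap1. The female arrays read 5.69 and 5.39 in AKP and 5.73 and 5.58 in AKP::Keap1. The AKP::Keap1 males were the lowest group, below all 6 other mice. The male difference was -0.66 ± 0.16 (adjusted p = 0.033), a 1.58-fold lower level, and the female difference was 0.11 ± 0.16 (0.66).

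Kmo, the outer mitochondrial membrane enzyme that makes 3-hydroxykynurenine, was not called in males, although 7 of 19 alternatives called it. It read 4.51 and 4.48 in males of AKP, 3.78 and 3.99 in males of AKP::Keap1, 4.20 and 3.88 in AKP females and 4.06 and 3.61 in AKP::Keap1 females. The male difference was -0.61 ± 0.20 (adjusted p = 0.062) and the female difference -0.21 ± 0.20 (0.47). Its male adjusted p was 0.0086 with array medians as the reference, 0.035 with normexp and 0.69 for unscaled signals, and the call of Haao, of like size in males, was lost in 7 of 18 alternatives.

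The dimmer Kmo probe read 2.31 and 2.45 in males of AKP, 1.67 and 1.76 in males of AKP::Keap1, 2.74 and 2.29 in AKP females and 1.72 and 0.68 in AKP::Keap1 females. The genotypes did not overlap in either sex on this probe. It was called in females, at -1.31 ± 0.34 (adjusted p = 0.036), and as the mean over the sexes, at -0.99 ± 0.24 (0.019), but not in males, at -0.67 ± 0.34 (0.17).

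At the branch point, Acmsd had the next largest male difference after Kyat3, with a wider error. It read -0.77 and -0.12 in males of AKP and -2.84 and -2.78 in those of AKP::Keap1. In females it read -1.12 and -2.50 in AKP and -0.21 and -1.96 in AKP::Keap1, so that mice of the same female group differed by more than 1 log2 unit. The male difference was -2.36 ± 0.66 (adjusted p = 0.044), a 5.15-fold lower level, and the female difference was 0.72 ± 0.66 (0.47), with a 95% interval from -0.89 to 2.33. The female minus male difference, 3.09 ± 0.94, was as large as that of Kyat3 but had an adjusted p of 0.13.

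Qprt, which commits quinolinic acid to NAD, read 4.35 and 4.14 in males of AKP and 3.77 and 3.79 in those of AKP::Keap1. Females read 3.86 and 3.60 in AKP and 3.93 and 3.62 in AKP::Keap1. The AKP males were above all 6 other mice, whose groups overlapped. The difference was -0.47 ± 0.16 in males (adjusted p = 0.077) and 0.04 ± 0.16 in females (0.87).

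Scaling between arrays moved the smaller male differences. In the brightest 10% of all genes, which hold Tdo2, Kmo, Haao, Kyat1, Kyat3 and Qprt, the median male difference was -0.35 and 26.7% of genes were called, while the median female difference was 0.02. In the like-sized brightness classes that hold Kynu and Acmsd, the male medians were -0.16 and 0.03. With quantile normalization the male differences were -0.35 for Haao (adjusted p = 0.11), -0.80 for Kynu (0.054) and -2.47 for Acmsd (0.051), and with the deposited signals unscaled they were -0.15 (0.53), -0.43 (0.19) and -1.86 (0.058). Kyat3 alone of the 4 stayed called under both. Leaving out any 1 of the 4 male arrays also ended the calls of the other 3. Far fewer of all genes were called in males in those fits. The male differences then ran from -2.69 to -2.04 for Acmsd, -1.14 to -0.73 for Kynu and -0.80 to -0.51 for Haao. Unscaled signals put the median of all genes 0.48 higher in AKP::Keap1 males, and array medians as the reference put it at -0.39. Of the genes called in males, 2648 were higher and 1815 lower, against 5402 and 170 for unscaled signals, 1709 and 6522 for array medians and 1511 and 4398 with normexp.

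**Figure D4:**
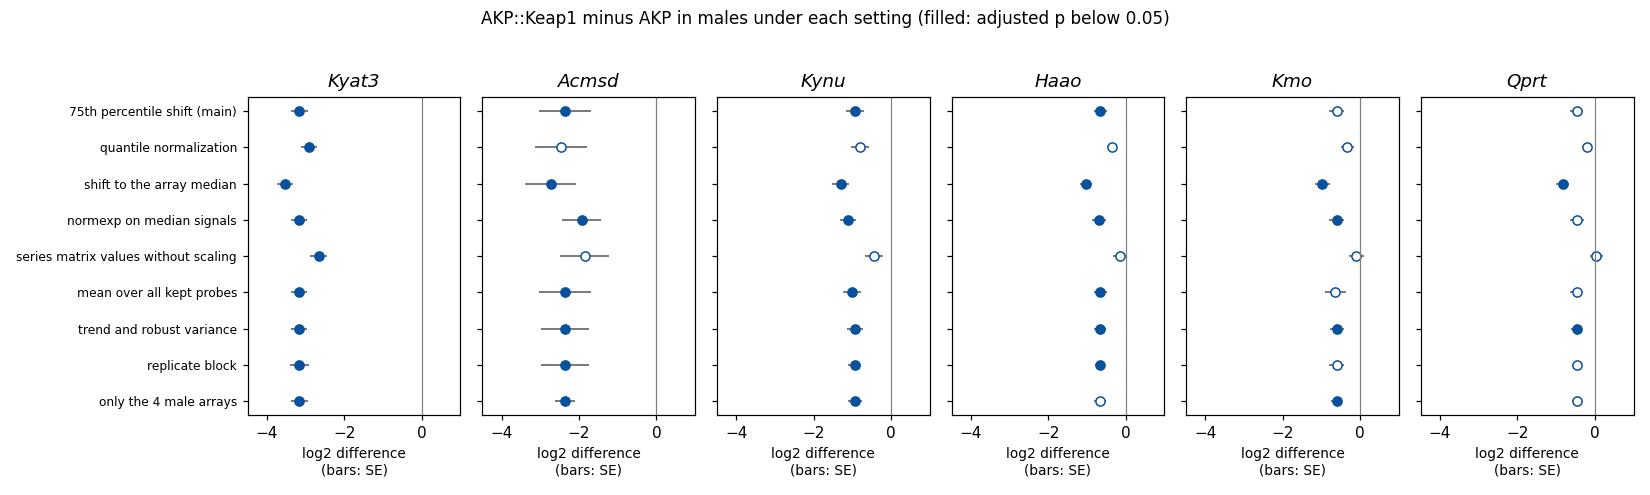
Male difference by genotype (log2, bars are standard errors) of 6 enzymes under the 75th percentile shift and 8 other settings, filled where the adjusted p was below 0.05. Kyat3 is filled in every row, between -3.54 and -2.66, while Haao (-0.15), Kmo (-0.10) and Qprt (0.04) lie near 0 for unscaled signals.

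The enzymes around the members were taken from a list named for this purpose. Counts in this list and in those that follow stand beside 39.1% of all genes called by genotype, 21.8% higher and 17.2% lower. Within the sexes 28.2% of all genes were called in males and 21.4% in females. No list was tested as a set. Of 6 other kynurenine enzymes tested, 1 rose and 3 fell by genotype as the mean over the sexes. Il4i1, an amino acid oxidase of immune cells that acts on tryptophan, rose by 0.92 ± 0.14 (adjusted p = 0.00497). Aldh8a1, which continues the branch behind Acmsd, fell by 0.52 ± 0.11 (0.0148), the mitochondrial aminotransferase Got2 fell by 0.31 ± 0.08 (0.0267), and Gcdh, the glutaryl-CoA dehydrogenase, fell by 0.30 ± 0.10 (0.0497). The aminotransferase Aadat and Dhtkd1 did not pass, and Ido1 was not above background. In males 1 rose and 3 fell, and in females 1 rose and none fell. None of the pathway genes outside the 10 enzymes was called in the test between the sexes.

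In the synthesis and salvage of NAD, 1 of 12 genes tested rose and 3 fell, beside 39.1% of all genes called by genotype. Aox1, an aldehyde oxidase that acts on nicotinamide breakdown products, rose by 2.30 ± 0.12 (adjusted p = 0.000324). The nicotinamide riboside kinase Nmrk1 fell by 1.30 ± 0.28 (0.0137), the adenylyltransferase Nmnat1 by 0.44 ± 0.08 (0.00813) and the NAD kinase Nadk by 0.29 ± 0.08 (0.0328). All 3 falls were called in males and none in females, where the differences were -1.08 for Nmrk1, -0.07 for Nmnat1 and 0.08 for Nadk, beside -1.51, -0.80 and -0.66 in males. Nampt, which salvages nicotinamide, differed by -0.15, and Naprt by -0.23, and neither passed. Of 5 genes that consume NAD, none rose and 2 fell, Sirt3 by 0.40 ± 0.09 (0.017) and Parp1 by 0.35 ± 0.09 (0.0248).

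Of 5 genes of the serotonin and indole arm that were well above background on all 8 arrays, 1 rose and 1 fell. The monoamine oxidase Maoa rose by 0.42 ± 0.09 (adjusted p = 0.0159) and the indole methyltransferase Inmt fell by 1.17 ± 0.25 (0.0131). Tph1, which starts serotonin synthesis, was well above background only on the 2 AKP::Keap1 male arrays, where it was at least 1.45-fold higher than in AKP males. It entered the table through those arrays alone, so no test of it is given. That bound sets the dim arrays at the lowest signal called well above background on each.

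Among 6 tryptophan transporters 1 rose and 2 fell by genotype. The aromatic amino acid transporter Slc16a10 fell by 0.81 ± 0.13 (adjusted p = 0.00514) and Slc36a4 by 0.49 ± 0.10 (0.0107). The 1 called rise was that of Slc6a19, which was not well above background in AKP males, so no test of it is given. It was at least 1.36-fold higher in AKP::Keap1 males by the bound described for Tph1.

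Of 7 genes for the aryl hydrocarbon receptor, which kynurenine and kynurenic acid can bind, and its targets, 2 rose and 1 fell. Cyp1b1 rose by 1.79 ± 0.21 (adjusted p = 0.00246) and Cyp1a1 by 1.03 ± 0.22 (0.0136), and Tiparp fell by 0.61 ± 0.18 (0.0417). The receptor Ahr differed by -0.01 and the liver target Cyp1a2 by 0.14, and neither passed.

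Of 6 genes for the glucocorticoid receptor, a known inducer of Tdo2, and its liver targets, none rose and 3 fell. Pck1, the gluconeogenic kinase, fell by 0.85 ± 0.17 (adjusted p = 0.0122), the tyrosine aminotransferase Tat by 0.75 ± 0.20 (0.0297) and the receptor Nr3c1 by 0.28 ± 0.08 (0.0377). Within the sexes 2 fell in males and 1 in females. None of 3 vitamin B6 genes and none of 5 genes of interferon signalling, the usual inducer of Ido1, passed by genotype, in males or in females.

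Marker genes of other cells moved with genotype, as did 21.8% of all genes called higher and 17.2% called lower. Of 11 hepatocyte markers tested 6 fell by genotype, with a median difference of -0.63, and 8 of 8 bile duct markers were measured, of which 6 rose, with a median of 3.11. The mean log2 level of the 11 hepatocyte markers reached 6.60 to 6.69 in males of AKP and 5.71 to 5.91 in males of AKP::Keap1. The female values were 6.50 to 6.60 in AKP and 5.74 to 6.23 in AKP::Keap1. This mean was therefore lower in both sexes of AKP::Keap1. The median difference of the markers was -0.68 in males, where 6 of 11 fell, and -0.32 in females, where 2 of 11 fell. The summed linear level of the 11 markers was 1734 to 2033 in AKP males and 1161 to 1167 in AKP::Keap1 males. In females the sums overlapped, at 1440 to 1516 in AKP and 1093 to 1468 in AKP::Keap1. On average the 11 hepatocyte markers stood far above the 75th percentile in every group, as the liver label implies.

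The summed linear level of the 8 bile duct markers, relative to the 75th percentile, was 7.94 to 9.05 for males of AKP and 71.9 to 85.1 for AKP::Keap1 males. For females it was 3.44 to 9.41 in AKP and 37.3 to 80.4 in AKP::Keap1. Spp1 made up 77.6% to 87.4% of this sum on the male arrays and 80.1% to 83.3% on the female arrays. Without it the other 7 markers summed to 1.16 to 1.78 in AKP and 9.37 to 10.8 in AKP::Keap1 for males, and to 0.662 to 1.63 and 7.41 to 13.4 for females. Of 7 macrophage and monocyte markers 4 rose, of 5 dendritic cell markers 4 rose, of 5 neutrophil markers 4 rose, and of 6 Kupffer cell markers none rose and 1 fell. Of 5 endothelial markers 4 fell, and of 6 stellate and fibroblast markers 3 rose and 1 fell. Of 5 T and NK cell markers 1 rose and of 4 B cell markers 1 rose. The B cell marker that rose, Cd79a, was not well above background in AKP males and was so on 1 AKP::Keap1 male array. Xcr1, among the dendritic cell markers that rose, was not well above background in AKP males either. The part of these markers in the differences of the enzymes was not tested. In bulk liver, fewer cells of a type and less RNA per cell cannot be told apart.

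Across the arrays, 65.7% to 70.7% of spots were well above background and none was saturated. The male groups lay at the ends of this range, at 66.25% and 65.68% in AKP and 70.66% and 70.71% in AKP::Keap1. Their 75th percentile signals were 974.4 and 1137 in AKP and 1531 and 1460 in AKP::Keap1. In females the genotypes overlapped in both measures. The 2 mice of a group correlated at 0.9895 to 0.9919 over all genes, which are no replicates of each other. Keap1 read lowest in the 4 mice with its deletion.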

How the data were processed

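Whole liver RNA (500 ng per mouse, per the labels' protocols) was labelled with Cy3 and hybridised to 8 Agilent arrays. The scanner files deposited by the authors give a linear intensity for every spot, made per the file headers with Feature Extraction 10.7.3.1, whereas the submitters' processing notes name 10.1. The processed signal, an intensity already background-subtracted by that software, was used. The authors' deposited series matrix holds the same intensity values unscaled.

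Control and outlier spots were left out. Probes were named through RefSeq accessions (GRCm38.p6), which gave 26055 of 39429 probes a symbol. Probes that 2 or more of the 8 arrays read well above background were kept, and the brightest stood for its gene. Log2 signals minus each array's 75th percentile were fitted with limma 3.58.1 in R 4.3.3, with 1 mean per group over all 8 arrays, two-sided. The fit was tested on simulated data.

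All 10 enzymes are named. Other pathway genes are named where among the 3 rises or 3 falls of their list with the smallest adjusted p, and the 3 genes with the highest Pearson r for each enzyme called in the interaction or with the largest rise or fall by genotype. A few uncalled genes were named after their values were seen. The members and lists were chosen with earlier results of these data known. Alternatives were other scalings, background correction, filters, probes, variance models, blocks and left-out arrays. Levels of different probes were set against each other only in the choice of the brightest probe, the brightness classes and the sums and means of markers. The number of arrays limits the precision.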

Additional observations from a re-analysis of the deposited data

Results flagged for a closer look

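The genotype difference of Kyat3, an aminotransferase that makes kynurenic acid, was called as different between the sexes, a call lost in 8 of 18 alternatives. The female minus the male difference was 3.05 ± 0.32 on the log2 scale (limma, adjusted p = 0.024, n = 2 mice per group), from -3.17 in males and -0.12 in females. No other enzyme of the 10 differed between the sexes at that threshold.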

How the results depend on the processing

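The fall of Kyat3 in males was called under every alternative run, and its loss of the call between the sexes is given above. The number of the 10 enzymes called in males, 4, became 1 with quantile normalization and 1 for the unscaled series matrix, 3 with no filter on dim probes, 5 with normexp, 5 with probes above background on all arrays, 6 with array medians, 6 with trend and robust variance, and 1 to 5 with arrays left out. In females, 0 became 1 with normexp, 1 with the replicate block, and 0 to 1 with arrays left out. As the mean over the sexes, 1 became 0 in the additive model, 0 in that model with the slide as a random effect, 2 with the replicate block, 2 for the series matrix, 2 with trend and robust variance, 2 with probes above background on all arrays, 3 with the mean over probes, 3 with normexp, 5 with array medians, and 1 to 3 with arrays left out. For the test between the sexes, 1 became 0 with the replicate block and 0 to 1 with arrays left out. By sex, 1 became 0 in the additive model, 0 in that model with the slide effect and 3 for the series matrix, and stayed at 1 with arrays left out. Calls over all 15833 genes moved with the settings too. In males they went from 4463 to 3212 with quantile normalization, 5572 for unscaled signals, 5909 with normexp and 8231 with array medians. Over the sexes they went from 6184 to 4841 in the additive model, 3309 in that model with the slide effect and 8743 with array medians. Between the sexes they went from 272 to 59 with the replicate block. With 1 array left out, fewer of all genes were called in every comparison. A group with 1 array left was assumed to vary like the others. The labels used here do not state a pairing of the mice by replicate number. Deviations of same-numbered mice correlated between -0.16 and 0.12, which cannot settle whether they were paired.

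The following sign changes concern values not called in the report. Kynu in females turned to -0.86 with normexp (adjusted p = 0.02), -0.87 on the dimmer probe (0.037), -0.39 with the mean over probes and -0.037 with array medians. Normexp chose the brightest probe anew, and its Kynu value may be that of the dimmer probe. Quantile normalization gave -0.018 for Haao and -0.034 for Qprt in females, 0.20 for Kyat1 and 0.087 for Tdo2 in males, 0.021 for Afmid over the sexes and -0.26 for Tdo2 between them. Array medians gave -0.011 for Haao and -0.081 for Qprt in females, -0.26 for Ido2 in males and 0.23 for Kyat1 between the sexes. Normexp gave 0.061 for Kyat1 between the sexes. For Kmo between the sexes the mean over probes gave -0.12 and the dimmer probe -0.64. The series matrix gave 0.23 for Afmid, 0.38 for Kyat1, 0.040 for Qprt and 0.30 for Tdo2 in males, 0.055 for Tdo2 in females, 0.27 for Afmid, 0.039 for Haao, 0.18 for Kyat1, 0.099 for Qprt and 0.18 for Tdo2 over the sexes, and -0.25 for Tdo2 between the sexes.

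With 1 array left out, values in females ran from -0.15 to 1.59 for Acmsd, -0.20 to 0.58 for Afmid, -0.038 to 0.26 for Haao, -0.43 to 0.015 for Kmo, -0.33 to 0.054 for Kyat1, -0.30 to 0.057 for Kyat3, -0.16 to 0.33 for Kynu, -0.11 to 0.19 for Qprt and -0.34 to 0.22 for Tdo2. In males they ran from -0.63 to 0.077 for Afmid, -0.023 to 0.23 for Ido2 and -0.28 to 0.035 for Kyat1. Over the sexes they ran from -0.24 to 0.16 for Afmid and -0.27 to 0.0067 for Tdo2, and between the sexes from -0.20 to 0.18 for Kyat1 and -0.13 to 0.42 for Tdo2. The cause was not tested. Normexp used median spot signals, chosen after seeing the data, as were the dimmer probe and the additive model without the slide. The planned form on mean spot signals was not run.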
